A study of Mus musculus with 6 samples.

Results

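Cxcl15 and 7 other genes known as markers of the glandular epithelium of the uterus (Foxa2, Spink1, Lif, Ltf, Calb1, Ttr and Sult1d1) were followed in mouse oviducts that had lost 1 allele of Wt1. The members were all probe sets, groups of short array probes read as 1 value, whose platform annotation named only 1 of these 8 genes. There were 17 such probe sets, covering all 8 genes, among 45037 probe sets and 18193 genes. Cxcl15 was selected on its log2 difference between the genotypes in these same arrays, so its values are a description and no test of them is offered. The other 7 genes were chosen as gland markers, to see whether Cxcl15 moved alone or with them.

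The oviducts came from females of the MF1 stock at embryonic day 2.5, after mating with wild-type males. One group, of 3 samples, had the genotype Wt1 ko/+ and is called heterozygous here. Another, also of 3 samples, was wild type, Wt1 +/+. The labels give neither the construction of the ko allele nor whether a sample was 1 animal or a pool, so errors and p-values cover the scatter of these samples only, part of which may be technical. Each sample of total RNA, 1 µg, gave 1 array.

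Uterine glands are tubes of secretory epithelium that open into the uterine lumen. In the mouse their development and function depend on FOXA2, a forkhead transcription factor, and around implantation they secrete LIF, a cytokine without which the blastocyst does not attach. The oviduct arises from the same Müllerian duct and has its own secretory and ciliated epithelium, but no glands of this kind. CXCL15, also called lungkine, is a chemokine of epithelia that attracts neutrophils, and Cxcl15 is used as a marker of the uterine gland cell.

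All levels below are log2 intensities after quantile normalization, unless another scale is named, and all differences are heterozygous minus wild type. The array medians of the deposited intensity lay between 151.6 and 167.8, and correlations between arrays were 0.931 to 0.963 over all probe sets. The Wt1 probe set read 11.12, 11.27 and 11.79 in heterozygous replicates 1, 2 and 3, against 12.17, 12.06 and 11.67 in wild-type replicates 1, 2 and 3. Heterozygous replicate 3 lay above wild-type replicate 3, so the Wt1 level did not separate the labels (difference -0.57, standard error 0.24, limma adjusted p = 0.933). The ratio of 3′ to 5′ signal of the Actb control, a sign of RNA quality, was 2.49, 1.67 and 1.71 in heterozygous replicates and 1.74, 2.40 and 5.90 in wild-type replicates, in replicate order. The oviduct marker Ovgp1, the main secreted glycoprotein of the oviduct, read 14.32, 14.32 and 14.36 in heterozygous arrays and 14.26, 14.29 and 14.26 in wild-type arrays.

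The start sites of Cxcl15 and Ltf are shown because Cxcl15 was the member that differed most between the genotypes and Ltf is a textbook estrogen target among the members. Each window runs from 250 bases before to 50 bases after the annotated start, on the plus strand, in RefSeq's annotation of build GRCm38.p6, at chr5:90794284-90794583 for Cxcl15 and chr9:111019042-111019341 for Ltf. Capitals mark the letters TATAAA in Cxcl15, and in Ltf the forkhead letters TGTTTNC followed by the estrogen receptor letters AGGTCA.
Cxcl15: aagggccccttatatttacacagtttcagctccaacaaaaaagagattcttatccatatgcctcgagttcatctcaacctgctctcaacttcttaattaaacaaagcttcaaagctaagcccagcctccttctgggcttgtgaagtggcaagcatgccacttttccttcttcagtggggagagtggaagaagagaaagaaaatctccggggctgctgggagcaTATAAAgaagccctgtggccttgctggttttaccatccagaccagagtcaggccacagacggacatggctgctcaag
Ltf: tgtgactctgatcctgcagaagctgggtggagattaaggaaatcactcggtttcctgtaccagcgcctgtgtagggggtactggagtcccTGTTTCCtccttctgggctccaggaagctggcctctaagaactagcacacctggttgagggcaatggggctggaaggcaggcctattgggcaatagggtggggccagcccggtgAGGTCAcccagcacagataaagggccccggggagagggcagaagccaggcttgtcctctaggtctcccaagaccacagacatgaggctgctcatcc

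Motifs were searched on both strands in the RefSeq windows of 5 members, Cxcl15, Foxa2, Ltf, Lif and Sult1d1, which had 7 windows in all because Foxa2 has 3. In Cxcl15, TATAAA lay at positions -27 to -22 from the start, and 13.6% of all 32851 windows of this length hold these letters. They were in 3 of the 7 member windows, those of Cxcl15 and Sult1d1 and 1 of Foxa2. The forkhead letters TGTTTNC were in the Ltf and Sult1d1 windows and not in that of Cxcl15, against 20.5% of all windows. AGGTCA was in the Ltf window alone among the members, against 16.3% of all windows. The WT1 core letters GCGTGGG were in none of the 7 member windows and in 5.04% of all windows. The searched letters did not overlap one another in either printed window. A match describes these letters only.

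Cxcl15 was higher in heterozygous oviducts at both of its probe sets. The brighter one read 10.16, 10.13 and 10.37 in heterozygous replicates 1, 2 and 3, against 7.45, 8.08 and 7.63 in wild-type replicates 1, 2 and 3. The lowest heterozygous array lay far above the highest wild-type array, and the heterozygous arrays were close to each other. The mean was 10.22 ± 0.13 in heterozygous and 7.72 ± 0.33 in wild-type oviducts (SD, n = 3 each), 5.66-fold higher, a log2 difference of 2.50 with a moderated standard error of 0.21. In RNA of a whole organ, more cells of a type and more RNA per cell cannot be told apart. On the deposited linear scale the same probe set read 1155, 1121 and 1311 in heterozygous arrays and 174, 269 and 193 in wild-type arrays.

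The dimmer Cxcl15 probe set read 8.86, 8.65 and 8.74 in heterozygous replicates and 6.71, 6.33 and 7.12 in wild-type replicates, in replicate order. Here too the groups did not overlap, with means of 8.75 ± 0.11 in heterozygous and 6.72 ± 0.40 in wild-type oviducts (SD, n = 3 each), a log2 difference of 2.03 with a standard error of 0.23. The order of the wild-type arrays differed between the probe sets: replicate 2 was the highest at the brighter one and the lowest at the dimmer one. The wild-type array with the high Actb ratio, replicate 3, lay between the others at the brighter probe set and was the highest wild-type array at the dimmer one. Without it the differences were 2.45 and 2.23. Over all 13 alternatives to the processing that were run for it, the difference of the brighter probe set stayed between 2.25 and 2.68.

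**Figure D1:**
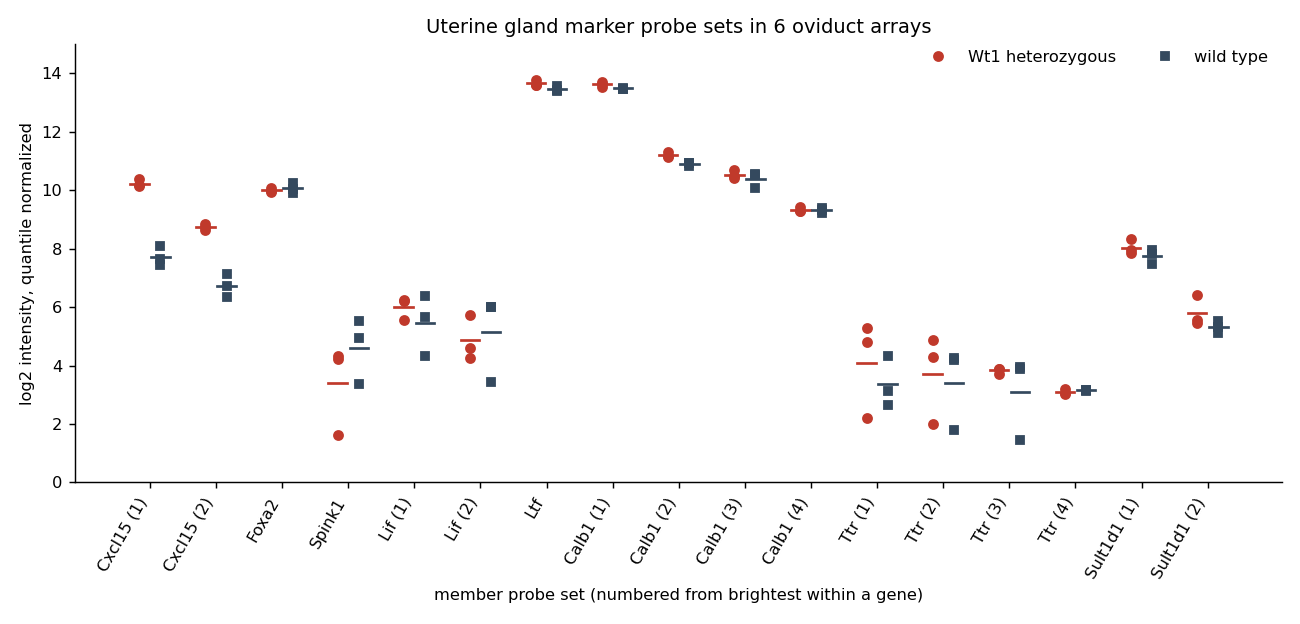
Log2 intensity (y axis) of the 17 member probe sets (x axis) in 3 Wt1 heterozygous arrays (red circles) and 3 wild-type arrays (dark squares), with horizontal bars at the group means. The groups stand clearly apart at both Cxcl15 probe sets, where the heterozygous means are 10.22 and 8.75 and the wild-type means 7.72 and 6.72. The probe sets of Spink1, Lif and Ttr are low and scattered.

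Foxa2, the regulator of the glands, was readily measured and about level between the genotypes. It read 10.08, 9.93 and 9.99 in heterozygous replicates 1, 2 and 3, against 9.89, 10.26 and 10.03 in wild-type replicates 1, 2 and 3. The heterozygous arrays lay inside the range of the wild-type ones. The difference was -0.06 (95% interval -0.45 to 0.32, n = 3 each), so a Foxa2 difference as large as that of Cxcl15 lay outside the interval in either direction.

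Lif, the secreted cytokine of the glands, was dim at both probe sets. A probe set is called dim here where both group means lie under 7.28, the median level over all probe sets on the array. The brighter Lif probe set read 6.22, 6.24 and 5.56 in heterozygous arrays and 5.65, 4.34 and 6.39 in wild-type arrays. The highest and the lowest Lif values were both wild type. The difference was 0.55 (95% interval -0.80 to 1.90), and at the other probe set -0.29 (-2.30 to 1.72), so the signs disagreed and the intervals were wide. Without wild-type replicate 2, the lowest array, the difference of the brighter one was -0.01.

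Spink1, a secreted trypsin inhibitor, and Ttr, the transthyretin that carries thyroid hormone and retinol-binding protein, were also dim at all of their probe sets. Spink1 read 1.62, 4.34 and 4.22 in heterozygous arrays and 5.54, 4.93 and 3.37 in wild-type arrays, with overlap. Its difference was -1.22 with a 95% interval of -3.49 to 1.05, opposite in sign to that of Cxcl15, and without heterozygous replicate 1, the lowest array, it was -0.33. The brightest Ttr probe set read 5.29, 4.79 and 2.22 in heterozygous arrays and 3.12, 4.31 and 2.64 in wild-type arrays, a difference of 0.74 (-1.48 to 2.97). Over the 4 Ttr probe sets the differences ran from -0.05 to 0.74, all with overlap between the genotypes. No detection calls were used, so whether Lif, Spink1 and Ttr were above background is unknown, and at their brightest probe sets the intervals reach beyond 1 or -1 on the log2 scale.

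Ltf and Calb1 were bright, and their differences were small. Ltf, the iron-binding lactoferrin of mucosal secretions that is also stored in neutrophil granules, read 13.76, 13.61 and 13.61 in heterozygous arrays and 13.41, 13.55 and 13.39 in wild-type arrays. The heterozygous arrays were the higher ones, by a small margin. The Ltf difference was 0.21 (95% interval -0.13 to 0.54, 1.16-fold), and with the deposited scaling it was 0.15 and the groups overlapped.

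Calb1, the calcium-binding calbindin, was measured by 4 probe sets with differences of 0.14, 0.30, 0.15 and 0.01, from the brightest to the dimmest. The brightest read 13.51, 13.69 and 13.64 in heterozygous arrays and 13.47, 13.51 and 13.45 in wild-type arrays, and the groups nearly touched. With the deposited scaling its difference was 0.07 and the groups overlapped. The second brightest read 11.13, 11.30 and 11.16 in heterozygous arrays and 10.81, 10.94 and 10.94 in wild-type arrays, without overlap on either scaling (95% interval -0.03 to 0.63). The other probe sets overlapped.

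Sult1d1, a cytosolic sulfotransferase, read 7.95, 7.84 and 8.31 at its brighter probe set in heterozygous arrays and 7.82, 7.48 and 7.95 in wild-type arrays. Heterozygous replicate 3 was the highest array and the rest were mixed. The difference was 0.28 (95% interval -0.23 to 0.79), and 0.49 (-0.24 to 1.22) at the dimmer Sult1d1 probe set.

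**Figure D2:**
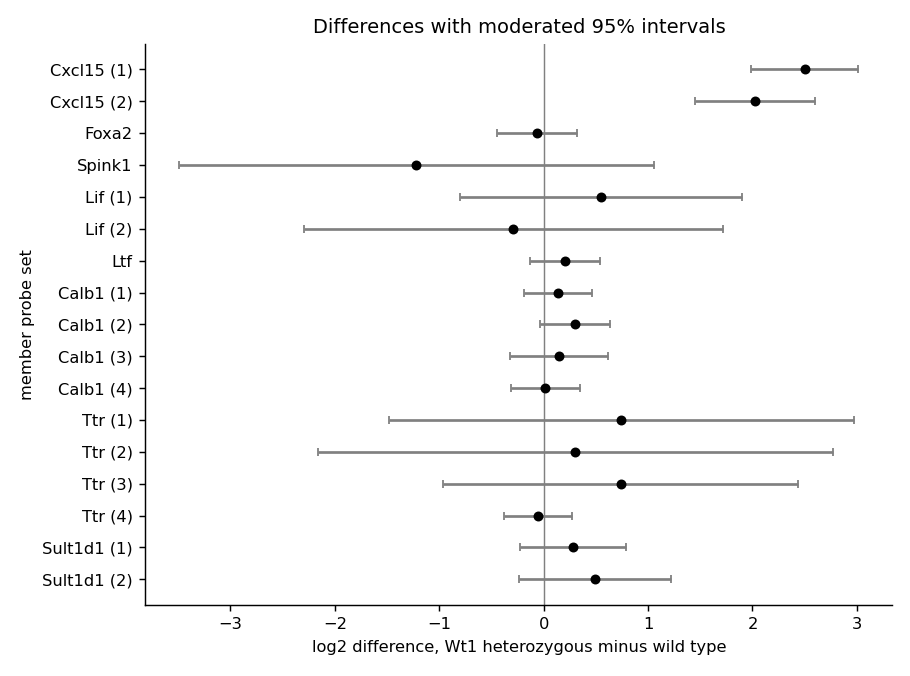
Log2 difference, heterozygous minus wild type (x axis), of the 17 member probe sets (y axis), with points at the estimates and bars for the moderated 95% intervals of the fit across all probe sets. Cxcl15 was selected on this difference, so its intervals, which begin at 1.98 and 1.45, are no test of it. The intervals of the other 15 probe sets include 0, narrowly around it for Foxa2, Ltf and Calb1 and widely for Spink1, Lif and most of Ttr.

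Across all 45037 probe sets, 3 passed an adjusted p of 0.05 (limma, Benjamini-Hochberg), or 0.00666%, and 0 of the 15 member probe sets besides Cxcl15 did. At an unadjusted p under 0.05 there were 2334 probe sets, 5.18%, and 0 of these 15. The adjusted p of the 15 ran from 0.933 to 0.991. Of these 15, 11 were higher and 4 lower, with a median difference of 0.21, while over all probe sets 21764 were higher and 23273 lower, with a median of -0.01. The genotypes did not overlap at 5 of the 17 member probe sets, against 10.5% of all probe sets. On the deposited scaling the count of member probe sets without overlap was 3. The genotype contrast was the one for which Cxcl15 was chosen, so nothing is read from these counts.

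At their brightest probe sets, 6 of the 8 genes were higher, and 45.0% of all genes were. The 7 genes besides Cxcl15 had 5 higher and 2 lower and a median of 0.21, or 0.15 with the deposited scaling. At the level of Cxcl15, between 8 and 9 on the log2 scale, the central 95% of 2477 genes lay between -0.58 and 0.51. Cxcl15 was selected on its difference, so its place outside this range is no test of it.

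**Figure D3:**
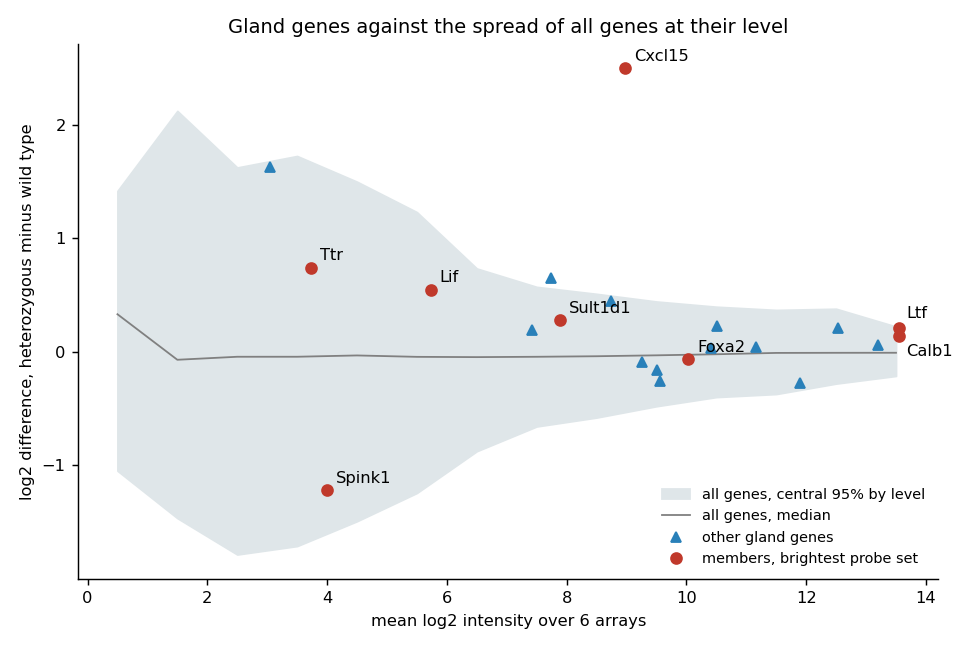
Log2 difference, heterozygous minus wild type (y axis), against the mean log2 intensity over 6 arrays (x axis) for the 8 members at their brightest probe sets (red circles, named) and 13 other gland genes (blue triangles). The grey band holds the central 95% of all genes in each unit of level and the line is their median. Cxcl15, which was selected on this difference, lies far above the band at 2.50. The other 7 members lie inside the band or at its edge. Of the other gland genes, Prss29 lies above the band at 0.65, and the rest lie inside it or at its edge.

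Other genes of uterine glands and of the epithelium around implantation were read from a list of 16, of which 13 were measured: 9 were higher, 4 lower and 0 passed (limma, adjusted over all probe sets; 0 of 18193 genes at their brightest probe sets passed). The list's median was 0.06. Without wild-type replicate 3 it was 0.15, with 11 higher and 2 lower. Among them are Prss28 and Prss29, secreted serine proteases of the gland. Prss28 read 3.60, 3.91 and 4.07 in heterozygous arrays and 2.43, 1.22 and 3.04 in wild-type arrays, dim but without overlap, a difference of 1.63 (standard error 0.48). Prss29 read 8.08, 7.81 and 8.31 at its brightest probe set in heterozygous arrays and 6.96, 7.99 and 7.29 in wild-type arrays, with overlap, a difference of 0.65 (standard error 0.30). At its dimmer probe sets the Prss29 differences were 2.46 and 2.90 (standard errors 0.64 and 0.87), without overlap, so the probe sets of this gene disagreed on size and agreed on direction.

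The differences of the remaining genes of that list ran from -0.28 to 0.45 at their brightest probe sets. At their other probe sets they ran from -0.61 for Klf5, without overlap, to 1.10 for Wnt7a, with overlap, both dim. A dimmer Lrp2 probe set differed by 0.68 without overlap. Lrp2, an endocytic receptor, differed by 0.45 at its brightest probe set, Padi1, a peptidylarginine deiminase, by 0.23, and Lcn2, the iron-sequestering lipocalin, by 0.21. Wnt7a, a Wnt ligand of the Müllerian epithelium, differed by 0.19, Sox17, a transcription factor, by 0.06, Klf5, another, by 0.04, and the mucin Muc1 by 0.03. Ihh, the hedgehog ligand that progesterone induces, differed by -0.09, Msx1, a homeobox gene, by -0.16, Wnt7b by -0.25 and Alox15, a lipoxygenase, by -0.28. Padi1 and Prss28 were the only genes of this list without overlap at the brightest probe set, 2 of 13, against 11.8% of all genes.

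In the signalling pathway of LIF, 6 of 10 measured genes were higher, 4 lower and 0 passed, with a median of 0.04 and a range from -1.29 to 0.36. Lifr, the LIF receptor, differed by 0.17 at its brightest probe set, with overlap, and by 0.28, without overlap, and -0.91 at the others. Il6st, its signalling partner gp130, differed by 0.08 at its brightest probe set, with overlap, and by 0.41, without overlap, 1.17 and 0.57 at the others. Stat3, the transcription factor they activate, differed by 0.01, and Socs3, the feedback inhibitor that STAT3 induces, by -0.12. The ends of the range, named after their values were seen, were Socs1, another feedback inhibitor, dim and with overlap, and Jak1, a kinase of the receptor, without overlap.

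Of 11 measured genes that respond to estrogen, as Ltf does in the uterus, 7 were higher, 4 lower and 0 passed, with a median of 0.04 and a range from -0.52 to 0.21. Pgr, the progesterone receptor, differed by 0.11, and Greb1, a coactivator of the estrogen receptor, by 0.06. Ccnd1, a cyclin of cell cycle entry that is named after its values were seen, differed by -0.23 at its brightest probe set, without overlap, and by -0.26 and -0.32 at the others. A list of 19 genes of gland development, mainly Wnt and fibroblast growth factor genes, had 18 measured members, 11 higher, 7 lower and 0 past the threshold. Its median was 0.04, with a range from -0.53 to 0.74, and 4 of the 18 did not overlap, against 11.8% of all genes. The ends of the range, named after their values were seen, were Sox9 and Fgf10, both without overlap, and Fgf10 was dim. At its other probe sets Sox9 differed by -0.64, without overlap, and -0.78, with overlap.

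Cxcl15 lies in a cluster of CXC chemokine genes on chromosome 5, and its neighbours did not share its difference. Most of these neighbours were dim, and whether the dim ones were above background is unknown. Of the 6 measured genes of related chemokines with the Glu-Leu-Arg motif and their receptor, 2 were higher, 4 lower and 0 passed, and the median was -0.34. Cxcl1, the next gene after Cxcl15 in RefSeq's order and likewise a neutrophil attractant, differed by -0.48 at its brightest probe set and by 0.22 and 0.54 at the others, all with overlap. Cxcl2 differed by -0.20 and Cxcl5 by -0.64, both dim. Pf4, a platelet chemokine 2 genes before Cxcl15, was well measured at 9.69 ± 0.10 in heterozygous and 9.53 ± 0.29 in wild-type oviducts (SD, n = 3 each), a difference of 0.16. Cxcr2, the receptor of these ligands on neutrophils, differed by 0.56 (standard error 0.25) at a dim level, without overlap.

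**Figure D4:**
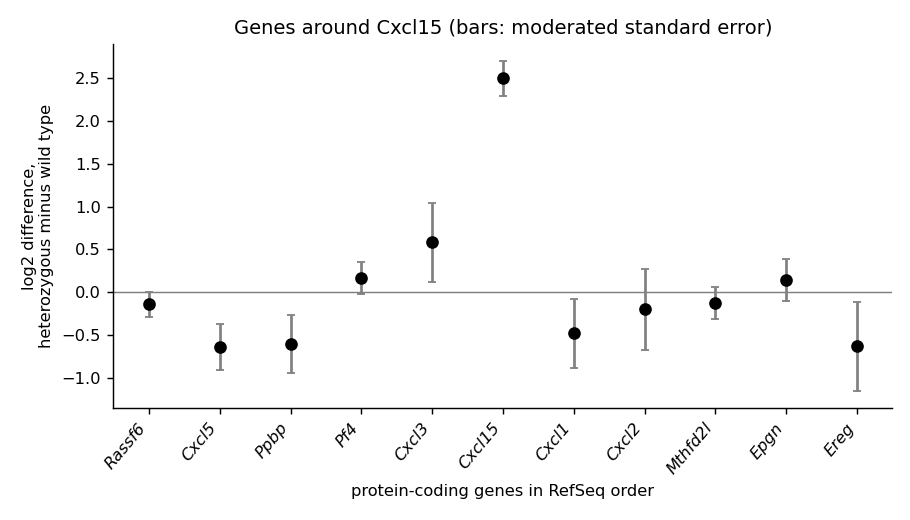
Log2 difference, heterozygous minus wild type (y axis), of Cxcl15 and the 5 protein-coding genes on each side of it in RefSeq's order on chromosome 5 (x axis), each at its brightest probe set, with bars for the moderated standard error. Cxcl15 stands at 2.50, and its 10 neighbours lie between -0.64 and 0.58. Most of these neighbours are dim, among them those at both ends of this range.

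Neutrophil genes and markers of fat and smooth muscle were also higher in heterozygous arrays, and their part in the difference of Cxcl15 was not tested. Of the 8 leukocyte genes 7 were higher and 1 was lower, and 0 passed. The list's median of 1.23, or 0.76 without wild-type replicate 3, fell between larger and smaller differences. The neutrophil genes S100a8, S100a9 and Ngp differed by 4.24, 3.76 and 2.21 without overlap, and Camp by 2.42 with overlap (standard error 1.23). Ptprc, Lyz2, Cd68 and Cd3e, which are not particular to neutrophils, differed by 0.25, 0.16, 0.13 and -0.53, all with overlap. Of the 8 leukocyte genes, all besides Ptprc, including the neutrophil genes, are named after their values were seen. The summed intensity of the 8 genes was 4291, 9980 and 6760 in heterozygous arrays and 3141, 3905 and 4140 in wild-type arrays. S100a8 read 9.14, 11.33 and 10.45 in heterozygous arrays and 5.13, 5.22 and 7.84 in wild-type arrays. Within the heterozygous group S100a8 was lowest in replicate 1. The order of the heterozygous arrays in Cxcl15 differed between its probe sets, so nothing is read from a comparison with S100a8 by array.

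The 3 measured fat genes were all higher, with a median of 1.48, 0 passed, and Adipoq, the fat hormone adiponectin, differed by 2.08. Their summed intensity was 335 to 617 in heterozygous and 129 to 174 in wild-type arrays. Cidec, a lipid droplet protein that is named after its values were seen, was near the floor in wild-type replicate 2, at 0.22. All 6 smooth muscle genes were higher, with a median of 0.65, 0 passed, and Myh11, smooth muscle myosin, differed by 0.58. Their summed intensity was 32773 to 43761 in heterozygous and 28961 to 31126 in wild-type arrays.

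Of 6 secretory and epithelial genes 4 were higher and 2 lower, with a median of 0.03, which was -0.04 with the deposited scaling, and Ovgp1 differed by 0.06. Of 6 ciliated cell genes 2 were higher and 4 lower, with a median of -0.13. With the deposited scaling 1 was higher and 5 lower, and without wild-type replicate 3 all 6 were lower, with a median of -0.16. Foxj1, the regulator of motile cilia, differed by -0.31, and Ccno, a cyclin of multiciliated cells that is named after its values were seen, by -0.87, both without overlap. The rest of the list, also named after their values were seen, overlapped. Dnah5 and Tubb4b differed by 0.72 and 0.03, and Tekt1 and Rsph1 by -0.18 and -0.08. Stromal genes were higher in 5 of 6 (median 0.13), endothelial genes in 4 of 4 (median 0.28, Pecam1 at 0.83) and mesothelial genes in 3 of 5 (median 0.08, Upk3b at 0.20). Wt1 itself, at -0.57, is 1 of the 5 mesothelial genes and among the lower ones. Ovarian genes were higher in 1 of 6 (median -0.28, Cyp11a1 at 0.12). Without wild-type replicate 3 the endothelial median was 0.46 and the mesothelial median 0.17. In none of these lists did a gene pass.

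Tissue from the uterus was looked for by genes that mark position along the duct. Hoxa9, which marks the oviduct, differed by 0.47 with overlap. Hoxa10 and Hoxa11, which mark the uterus, differed by 0.29 and -0.25, also with overlap, and Hoxa11 was dim. Hoxa11 read 6.11, 6.61 and 6.72 in heterozygous arrays and 6.36, 7.04 and 6.78 in wild-type arrays. All 9 position genes together had 7 higher, 2 lower and 0 past the threshold, with a median of 0.21, or 0.10 without wild-type replicate 3. Of 5 genes of the airway and other secretory epithelia, listed because Cxcl15 is also a lung chemokine, 1 was higher and 4 lower, with 0 past the threshold and a median of -0.21. The groups did not overlap in Sftpd and Scgb1a1, named after their values were seen. Scgb1a1, a secretoglobin of airway club cells, was dim and read 2.59, 2.30 and 2.59 in heterozygous arrays and 3.79, 3.71 and 3.96 in wild-type arrays, a difference of -1.33 (standard error 0.16). Sftpd, the surfactant protein D of mucosal surfaces, read 12.07, 11.80 and 12.17 in heterozygous arrays and 11.31, 11.45 and 11.52 in wild-type arrays, a difference of 0.59 (standard error 0.16).

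**Figure D5:**
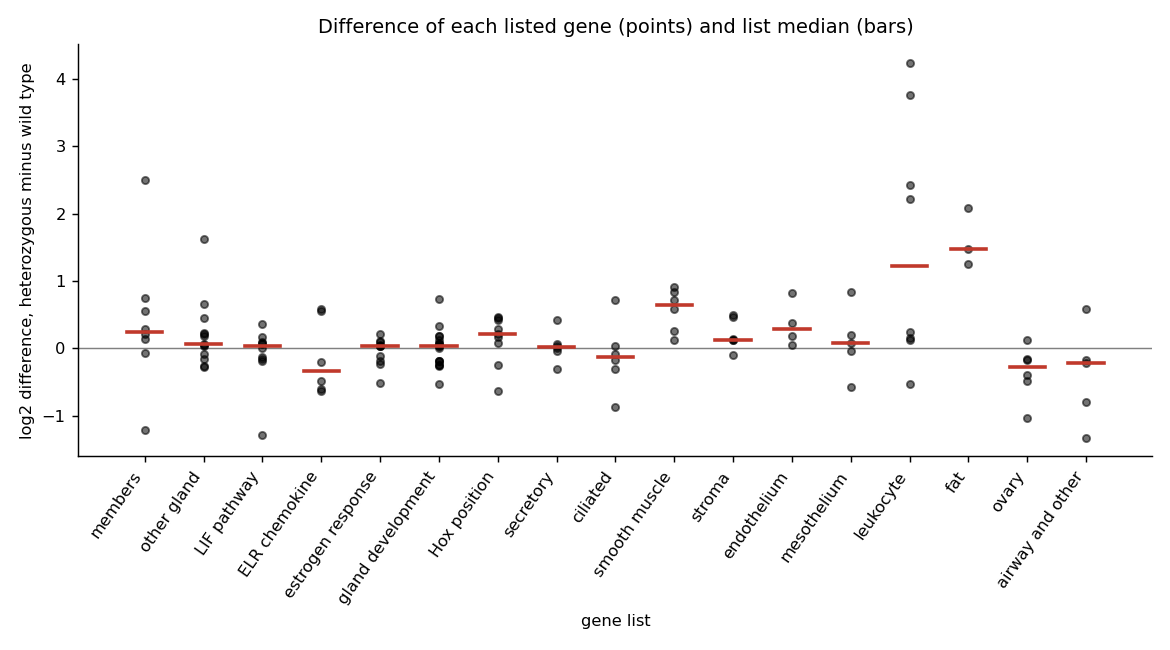
Log2 difference, heterozygous minus wild type (y axis), of every measured gene (points) in the members and the other gene lists (x axis), with red bars at the list medians. Cxcl15 at 2.50 is the top point of the members, whose median is 0.25. The leukocyte list reaches 4.24 through S100a8, and the fat list has the highest median, 1.48.

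The likeness of other genes to Cxcl15 was described by Pearson's r with its brighter probe set over the 6 arrays, among 11776 genes whose mean over the arrays exceeded the median level. The highest values were 0.991 for Dusp19, a phosphatase, 0.982 for Frmd5, 0.979 for Csrp2, a LIM domain protein, 0.979 for Tifa, an adaptor of inflammatory signalling, and 0.976 for Psmd4, a proteasome subunit. The arrays form 2 groups in Cxcl15, so a high r over all 6 mainly restates a difference between the genotypes, and the differences of these genes were 0.24 to 1.13. After subtraction of each group's mean, the highest r were 0.996 for Nmur2, 0.996 for Cemip2, 0.996 for Slc7a4, 0.995 for Itpka and 0.994 for Actl7b. The dimmer probe set of Cxcl15 itself had an r of 0.939 over all arrays and of -0.61 within the groups, so the variation within a genotype was not shared by the probe sets of this gene. Of the other members' brightest probe sets, Ltf had an r of 0.863 over all arrays, Calb1 of 0.798, Foxa2 of -0.13 and Spink1 of -0.47.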

How the data were processed

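For 45101 probe sets the authors deposited intensities on a linear scale. Which program summarised the probes is not stated in the labels or the file. The values themselves show a scaling, since their mean after trimming 2% at each end was 500.002 on every array. Detection calls were not used. After removal of 64 control probe sets, intensities under 1 were set to 1, log2 transformed and quantile normalized, because the array medians differed by 0.147. Differences were fitted across 45037 probe sets by limma 3.58.1 (R 4.3.3) as two-sided tests at a Benjamini-Hochberg adjusted p of 0.05. With 3 arrays against 3, an exact permutation test cannot go below 0.1, so none is given. The number of arrays limits the precision.

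Probe sets were named from the platform annotation: 34945 had 1 symbol, 932 several and 9160 none. Entrez identifiers of 34741 matched RefSeq, and 0 symbols changed. A gene was read at the probe set with the highest mean over the 6 arrays. Areg, Ptgs1, Calca, Cxcr1, C3, Tcf7, Dnai1, Mcidas and Plin1 are not analysed here.

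Members, lists and the likeness rule were chosen with earlier results of these data known. Named list genes were all those of the other gland list and a fixed few of each other list, and any outside this rule are marked as named after their values were seen. In simulated data 1% of 100 probe sets shifted by 1 on the log2 scale and 59% of 100 shifted by 2 were recovered, with 3 false calls among the 45037. Only probe sets with a mean above the median level were shifted, so the recovery does not apply to dim ones.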

Additional observations from a re-analysis of the deposited data

How the results depend on the processing

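With limma, 3 probe sets passed across the whole table. The count was 1 with log2 of the intensity plus 16, 14 with array weights, 0 with the replicate number as a block (2024 at an unadjusted p under 0.05) and 0 with the Actb ratio as a covariate (2339). It was 0 to 1 when 1 array was left out, with 1 only without wild-type replicate 3, and 1810 to 4285 at an unadjusted p under 0.05. The cause was not tested. The same-numbered arrays did not deviate together (correlations of -0.16, -0.02 and -0.09), and nothing in the labels pairs them. Whether they were handled in pairs is unknown. Of the 15 member probe sets besides Cxcl15, 0 passed in any alternative run. The brighter Cxcl15 difference was 2.36 to 2.68 when 1 array was left out, and 2.50 with the replicate number as a block. The count of 6 of 8 genes higher held in every alternative run, except that the dim filter left 5 genes, 4 of them higher. Without wild-type replicate 2 the 6 were not the same genes, since Lif turned lower (-0.01) and Foxa2 higher (0.04). The sign of the difference turned in at least 1 alternative at 7 of those 15 probe sets: that of Foxa2 (-0.20 to 0.04), both of Lif (-0.01 to 1.30 at the brighter, -1.14 to 0.20 at the other), the 2 dimmest of Calb1 (-0.0044 to 0.25 and -0.03 to 0.05) and 2 of Ttr (-0.51 to 1.47 and -0.07 to 1.34). The dim levels of Spink1, Lif and Ttr limit what can be said of them.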
